A study of Mus musculus with 6 samples.

Results

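The genes described here move vitamin A (retinol) into cells and turn it into retinoic acid. They are the 9 rows of the deposited table of 23997 gene symbols named Rbp4, Stra6, Crabp1, Rdh5, Rdh10, Dhrs3, Aldh1a1, Aldh1a2 and Aldh1a3, and all 9 were found. The list was drawn up with the difference between the study's groups already known, so the members' values in that contrast are given as a description and no test of it is reported for them. The study sequenced mRNA of mouse inguinal white adipose tissue (iWAT), a subcutaneous fat pad, in 6 libraries. The Atf4WT group (n = 3) carried floxed Atf4 alleles and no Cre, and the Atf4AKO group (n = 3) carried the same alleles with AdipoqCre, which deletes Atf4 in cells that use the adiponectin promoter. Mice of both genotypes lived at 22 °C until 12 h of cold at 5 °C, so no cold response can be read from these libraries, and effects of Cre and of Atf4 loss cannot be told apart. The labels used here give no age, sex or litter and do not say whether a library is 1 animal, so any p-value measures the spread between these libraries, which may be technical.

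Retinol travels in blood bound to the carrier protein encoded by Rbp4 and enters some cells through the receptor encoded by Stra6. Retinol dehydrogenases such as those of Rdh10 and Rdh5 oxidise retinol to retinal, the enzyme of Dhrs3 reduces retinal back to retinol, and the retinaldehyde dehydrogenases of Aldh1a1, Aldh1a2 and Aldh1a3 oxidise retinal irreversibly to retinoic acid, the ligand of the nuclear retinoic acid receptors. Crabp1 encodes a cytosolic carrier of retinoic acid. In adipose tissue of mice, RBP4 is known as a secreted adipokine, Aldh1a1 as the main retinaldehyde dehydrogenase of white fat, and retinoic acid as an inducer of the Ucp1 gene.

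The targeted gene went with the labels, and the libraries differed in the other tissues they held. Levels are in FPKM, the fragments per kilobase of a transcript scaled to 1e6 fragments mapped. Atf4 averaged 299 ± 36.2 FPKM over the Atf4WT libraries and 135 ± 19.4 FPKM over the Atf4AKO libraries (SD, n = 3 each), with every Atf4AKO library below every Atf4WT library (limma adjusted p = 0.49 over all genes, exact two-sided permutation p = 0.1, the smallest possible with 3 against 3). All 8 adipocyte markers (Adipoq, Plin1, Fabp4 and others) were above 0 in every library, with sums between 52198 and 72641 FPKM for Atf4WT and between 60192 and 92215 FPKM for Atf4AKO. The sum of 6 beige adipocyte markers was 121 to 2749 FPKM for Atf4WT and 940 to 998 FPKM for Atf4AKO. Ucp1, 1 of them, was 15.5, 1370 and 211 FPKM in Atf4WT 1 to 3 and 456, 497 and 415 FPKM in Atf4AKO 1 to 3. The sum of 8 skeletal muscle markers was 5.52 to 656 FPKM for Atf4WT and 4.71 to 6338 FPKM for Atf4AKO, with Atf4AKO 1, Atf4AKO 2 and Atf4WT 2 high, and Myh1 listed at 0 in at least 1 library. The sum of 9 mammary and skin epithelial markers was 0.350 to 906 FPKM for Atf4WT and 0.643 to 179.6 FPKM for Atf4AKO, with Atf4WT 1, Atf4WT 2 and Atf4AKO 3 high. Relative depth, read from the steps of very low values, lay between 0.933 and 1.19 of the mean of the 6 libraries, and absolute depth is unknown.

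The promoter windows of the members are shown for Rdh5, because it was the member whose groups did not overlap, and for Rbp4 and Crabp1, because they held the motif matches. Windows run 5′ to 3′ on the gene's strand from 250 bases before to 50 bases after the gene's start, from RefSeq on GRCm38.p6, and were matched by symbol for 7 of the 9 members (not Rdh10 and Aldh1a3). The starts are RefSeq's and can differ from the GENCODE gene bounds: the Rdh5 window lies inside the GENCODE gene, which begins farther upstream. Capitals mark matches to TGATGNAA, the core of the element bound by dimers of ATF4 and C/EBP factors. Rdh5 and Rbp4 lie on the minus strand and Crabp1 on the plus strand.
Rdh5 chr10:128919248-128919547: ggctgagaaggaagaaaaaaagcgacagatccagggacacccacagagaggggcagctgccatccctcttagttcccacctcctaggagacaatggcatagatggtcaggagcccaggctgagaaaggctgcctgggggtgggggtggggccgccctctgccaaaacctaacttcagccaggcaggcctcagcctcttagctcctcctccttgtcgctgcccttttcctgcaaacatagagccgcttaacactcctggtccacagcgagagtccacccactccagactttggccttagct
Rbp4 chr19:38125272-38125571: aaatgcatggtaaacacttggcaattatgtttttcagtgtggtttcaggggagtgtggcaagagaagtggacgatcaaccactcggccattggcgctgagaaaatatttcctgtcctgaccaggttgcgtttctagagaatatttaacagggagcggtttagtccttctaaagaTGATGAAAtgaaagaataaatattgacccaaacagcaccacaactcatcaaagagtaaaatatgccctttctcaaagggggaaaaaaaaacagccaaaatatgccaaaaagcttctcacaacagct
Crabp1 chr9:54764498-54764797: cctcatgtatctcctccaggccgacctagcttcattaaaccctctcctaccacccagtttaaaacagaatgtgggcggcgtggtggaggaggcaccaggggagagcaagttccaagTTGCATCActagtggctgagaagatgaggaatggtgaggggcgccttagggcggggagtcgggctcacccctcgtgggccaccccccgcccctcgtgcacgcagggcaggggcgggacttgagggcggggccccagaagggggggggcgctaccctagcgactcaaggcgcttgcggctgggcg

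The Rdh5 window held no match to TGATGNAA on either strand. Of 2 Rbp4 windows the upstream one shown held TGATGAAA from position -76 relative to the start, and the Crabp1 window held the reverse complement, TTGCATCA, from position -134. No other of the members' windows held a match, and 3.97% of all 32851 RefSeq windows held at least 1. No member window held, on either strand, a direct repeat of the half-site AGNTCA spaced by 5, 2 or 1 bases, forms bound by dimers of retinoic acid and retinoid X receptors, and these repeats were in 0.204%, 0.107% and 0.219% of all windows. Only this spelling, with A first, was searched, so elements with another form of the half-site would be missed. The matches did not overlap each other. A match describes letters in the window and is no evidence of binding.

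The members spanned a wide range of levels, and the order of those levels was similar in each library. Rbp4 (mean 156 FPKM over the 6 libraries), Dhrs3 (83.2 FPKM) and Aldh1a1 (47.7 FPKM) formed an abundant set, each above the next in 6 of 6 libraries with ranges that did not overlap. Aldh1a3 (5.32 FPKM), Rdh10 (2.62 FPKM) and Rdh5 (1.62 FPKM) followed, with overlapping ranges between neighbours: each was above the next in 5 of 6 libraries. Aldh1a2 (0.403 FPKM) was above Stra6 in 6 of 6 libraries, with ranges that did not overlap, and Stra6 (0.0650 FPKM) and Crabp1 (0.0367 FPKM) overlapped. FPKM is a value per length, so these levels can be set side by side. Of the 9 members 6 had a mean of at least 0.5 FPKM, the minimum for genes entering the comparison across all genes, and Stra6, Aldh1a2 and Crabp1 did not.

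**Figure D1:**
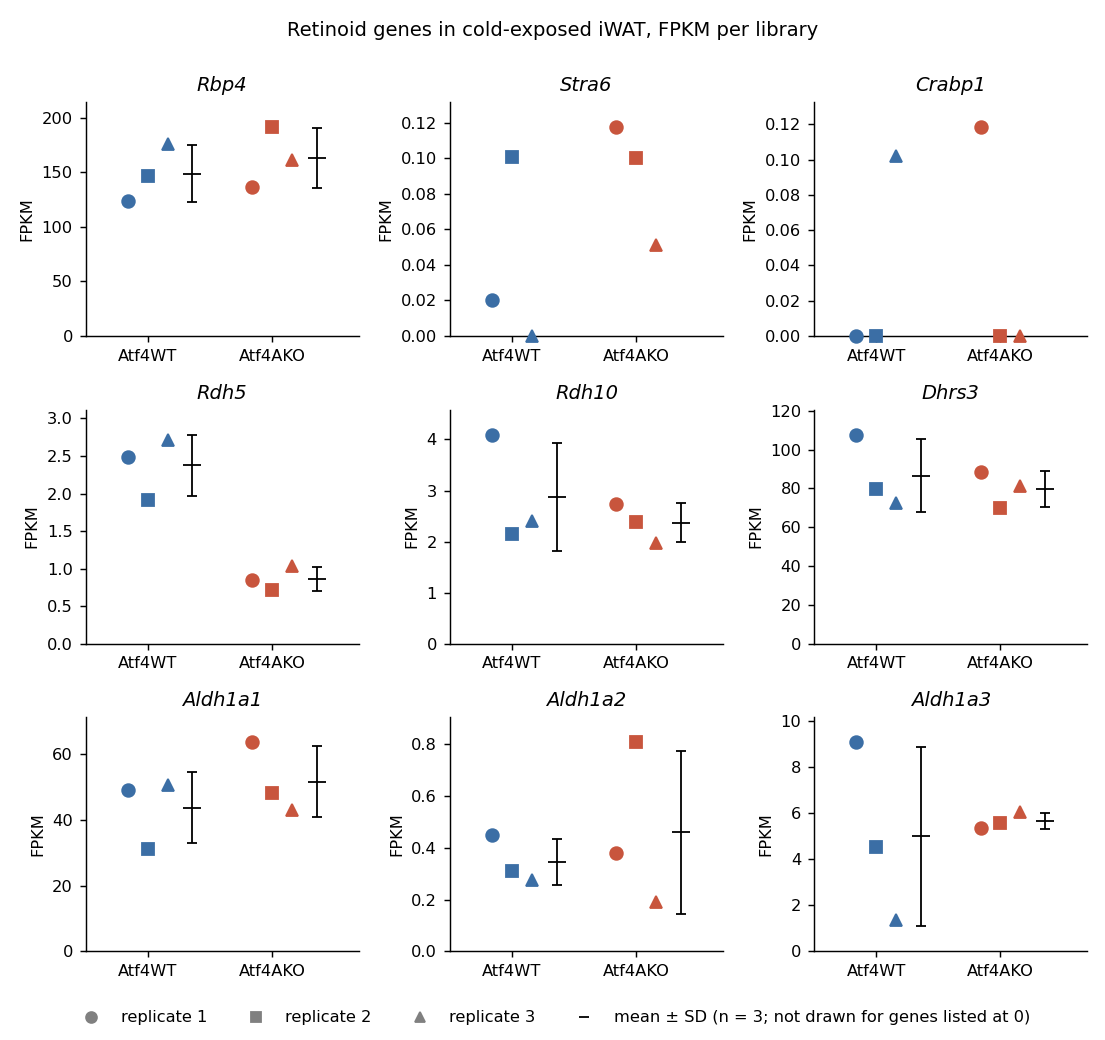
FPKM of the 9 retinoid genes in each library (circle, square and triangle for replicates 1, 2 and 3), by group, with the group mean ± SD (n = 3) for genes above 0 in every library; each panel has its own linear axis from 0. The 3 Atf4AKO libraries of Rdh5 lie between 0.717 and 1.04 FPKM, below the lowest Atf4WT library at 1.92 FPKM, whereas the groups overlap in the other 8 genes.

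Rdh5, which encodes a retinol dehydrogenase best known for oxidising 11-cis-retinol in the visual cycle of the eye, was lower in Atf4AKO in every library. It was 2.49, 1.92 and 2.72 FPKM in Atf4WT 1 to 3 and 0.843, 0.717 and 1.04 FPKM in Atf4AKO 1 to 3. The groups did not overlap. Their means were 2.38 ± 0.410 and 0.866 ± 0.161 FPKM (SD, n = 3 each), a ratio of 2.74 between Atf4WT and Atf4AKO, and the difference of mean log2(FPKM + 1), Atf4AKO minus Atf4WT, was -0.85. This scale understates the change at low FPKM: the difference was -1.07 with 0.5 added and -1.36 with 0.1 added. Rdh5 was the 1 member of 9 with each Atf4AKO library below each Atf4WT library, as were 8.34% of the 12818 genes tested. The Atf4AKO libraries lay wholly above in 0 of 9 members and in 8.21% of the genes tested. These values are of the whole pad, in which fewer cells of a type and less RNA per cell cannot be told apart.

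The sum of muscle markers beside these Rdh5 values was 13.1, 656 and 5.52 FPKM in Atf4WT 1 to 3 and 2285, 6338 and 4.71 FPKM in Atf4AKO 1 to 3. Without Atf4AKO 1 and 2, a choice made after the data were seen that leaves 1 knockout library, the log2 difference of Rdh5 was -0.72. It was -0.75 with the muscle marker sum and -0.86 with the epithelial marker sum as a covariate.

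Rdh5 occupies bases 128913593 to 128922888 of the minus strand of chromosome 10 (GENCODE, GRCm38) and shares 25.6% of its exonic bases with Bloc1s1, which encodes a subunit of a lysosome biogenesis complex. Both genes are on the minus strand, so counting by strand would not separate them there. Of the 50-base stretches of Rdh5's protein-coding transcripts 29.8% also occurred in transcripts of Bloc1s1. Bloc1s1 was far more abundant, at 88.7, 141 and 136 FPKM in Atf4WT 1 to 3 and 148, 189 and 135 FPKM in Atf4AKO 1 to 3. Its groups overlapped and its mean was higher in Atf4AKO, 157 ± 28.1 against 122 ± 28.9 FPKM (SD, n = 3 each), opposite in sign to Rdh5. How the authors assigned reads shared by these genes is not given in the sources used here.

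Rdh10, the retinol dehydrogenase needed for retinoic acid synthesis in the mouse embryo, did not separate the groups. It was 4.10, 2.15 and 2.39 FPKM in Atf4WT 1 to 3 and 2.74, 2.39 and 1.97 FPKM in Atf4AKO 1 to 3. Atf4WT 1 stood above the rest, and without it the log2 difference moved from -0.18 to 0.03. As a share of the summed FPKM of Rdh5 and Rdh10, Rdh5 was 37.8%, 47.1% and 53.2% in Atf4WT 1 to 3 and 23.6%, 23.1% and 34.5% in Atf4AKO 1 to 3. The shares did not overlap between groups, and they rest on the Rdh5 values above.

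Dhrs3, the retinal reductase, was abundant and overlapped between the groups. It was 108, 79.6 and 72.3 FPKM in Atf4WT 1 to 3 and 88.3, 69.98 and 81.0 FPKM in Atf4AKO 1 to 3. The means were 86.5 ± 18.7 and 79.8 ± 9.23 FPKM (SD, n = 3 each), and the highest library was 1.54 times the lowest. Its SD within groups was 0.241 on the log2 scale, larger than in 59.3% of genes tested. The log2 difference was -0.10, and 0.07 without Atf4WT 1. Dhrs3 was 14.1 to 19.6 times the sum of Rdh5 and Rdh10 in Atf4WT and 22.5 to 26.9 times in Atf4AKO. That ratio did not overlap between groups, but Rdh5 is part of its denominator, so it is no result separate from the Rdh5 values.

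**Figure D2:**
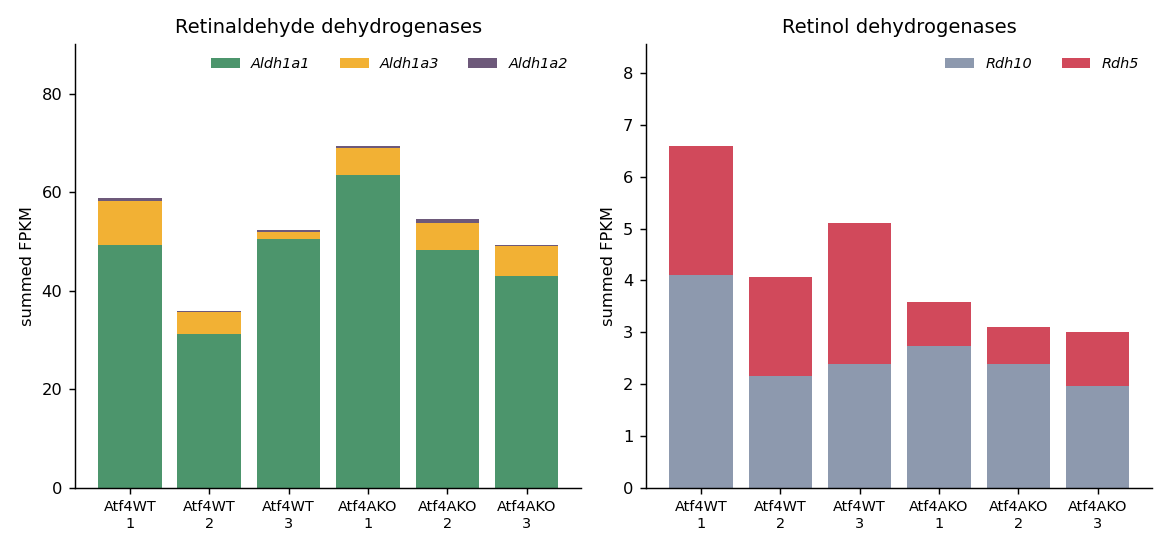
Summed FPKM per library of the retinaldehyde dehydrogenase genes Aldh1a1, Aldh1a3 and Aldh1a2 (left) and of the retinol dehydrogenase genes Rdh10 and Rdh5 (right), stacked by gene, 1 bar per library with no error bar. Aldh1a1 makes up between 83.8% and 96.8% of the left bars, and the Rdh5 part of the right bars is smaller in each of the 3 Atf4AKO libraries than in any Atf4WT library.

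Aldh1a1 was the predominant retinaldehyde dehydrogenase transcript in every library, at 83.8% to 96.8% of the summed FPKM of Aldh1a1, Aldh1a2 and Aldh1a3. It was 49.2, 31.2 and 50.6 FPKM in Atf4WT 1 to 3 and 63.6, 48.2 and 43.1 FPKM in Atf4AKO 1 to 3. The groups overlapped, with means of 43.7 ± 10.9 and 51.6 ± 10.7 FPKM (SD, n = 3 each), Atf4WT 2 low and Atf4AKO 1 high. The log2 difference was 0.25, but 0.03 without Atf4WT 2 and 0.09 without Atf4AKO 1. Aldh1a1 shared 6.06% of its 50-base stretches with its neighbour and close relative Aldh1a7, both on chromosome 19, so reads from those stretches could fall to either gene.

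Aldh1a3, a retinaldehyde dehydrogenase also known from epithelia, was the most variable of the 6 members tested across all genes. It was 9.08, 4.51 and 1.38 FPKM in Atf4WT 1 to 3 and 5.34, 5.58 and 6.05 FPKM in Atf4AKO 1 to 3. The Atf4AKO libraries lay close together, inside the range of Atf4WT. Its SD within groups was 0.743 on the log2 scale, larger than in 95.4% of genes tested, where the median was 0.207. The log2 difference of 0.39 turned to -0.16 without Atf4WT 3 and was 0.88 without Atf4WT 1.

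Aldh1a2, the retinaldehyde dehydrogenase of embryonic mesoderm and of mesothelium, was low throughout. It was 0.448, 0.312 and 0.277 FPKM in Atf4WT 1 to 3 and 0.380, 0.808 and 0.190 FPKM in Atf4AKO 1 to 3. Atf4AKO 2 was the highest and Atf4AKO 3 the lowest of the 6, so the range of Atf4AKO enclosed that of Atf4WT. The 5 mesothelial markers summed to 4.71 to 9.91 FPKM in Atf4WT and 2.77 to 8.27 FPKM in Atf4AKO. Lrrn4 made up most of this sum, at 1.98 to 8.65 FPKM, while Msln, Upk3b and Wt1 were listed at 0 in at least 1 library each. The part of such cells in the Aldh1a2 values was not tested.

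Rbp4, the most abundant member, was 124, 147 and 176 FPKM in Atf4WT 1 to 3 and 137, 192 and 161 FPKM in Atf4AKO 1 to 3. The groups overlapped, with means of 149 ± 25.8 and 163 ± 27.5 FPKM (SD, n = 3 each). The log2 difference of 0.13 was 0.01 without Atf4WT 1, 0.01 without Atf4AKO 2 and -0.02 after rescaling each library to the same sum of FPKM. The highest library was 1.55 times the lowest.

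Stra6 and Crabp1, the cell-surface retinol receptor and the retinoic acid carrier, were at the edge of detection. Stra6 was 0.0201 FPKM in Atf4WT 1, 0.101 FPKM in Atf4WT 2 and listed at 0 in Atf4WT 3, and was 0.118, 0.1002 and 0.0512 FPKM in Atf4AKO 1 to 3. After allowing for relative depth, the values above 0 were whole multiples (1, 4, 5, 4 and 2, to 2 decimals) of the smallest, in Atf4WT 1. Crabp1 was listed at 0 in 4 of 6 libraries, and reached 0.102 FPKM in Atf4WT 3 and 0.119 in Atf4AKO 1. For Crabp1 the same calculation gave 1.23 between its 2 values above 0, which is not a whole multiple. No fold is given for either gene, and a difference between groups was not detectable at these levels.

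**Figure D3:**
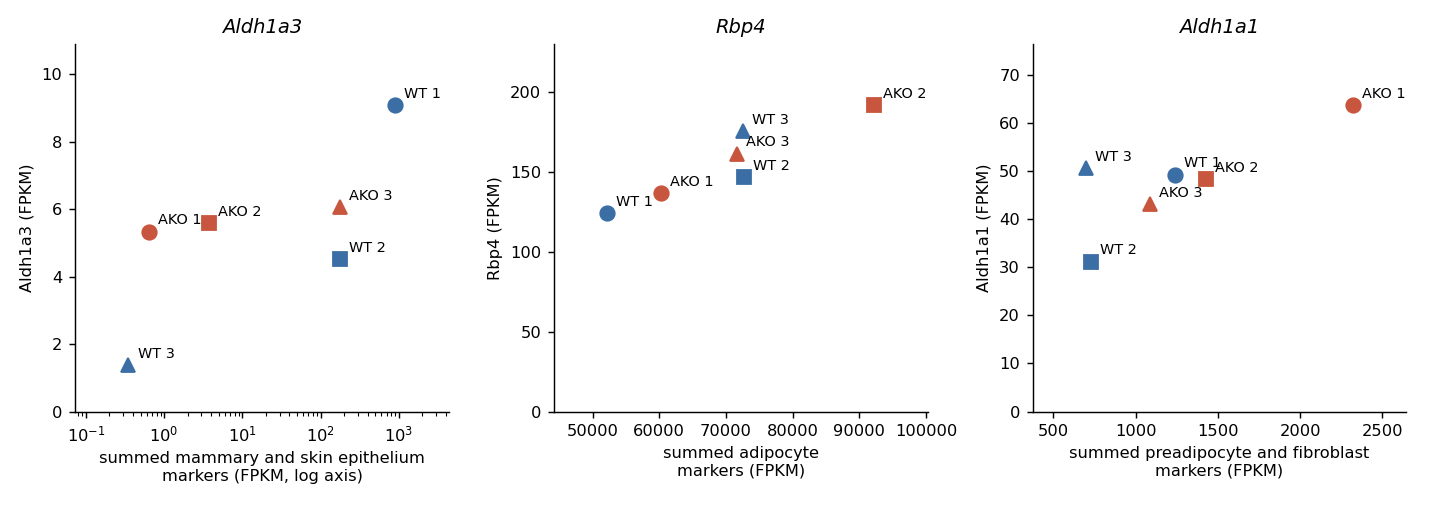
FPKM of Aldh1a3, Rbp4 and Aldh1a1 in each of the 6 libraries (vertical, linear from 0) against the summed FPKM of epithelial markers (log axis), adipocyte markers and preadipocyte and fibroblast markers; blue is Atf4WT, red is Atf4AKO. Rbp4 is lowest in Atf4WT 1 and highest in Atf4AKO 2, which are also lowest and highest in adipocyte markers, at 52198 and 92215 FPKM. The same libraries are lowest and highest in the sum of FPKM over all genes, at 524158 and 717778.

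Some members were highest or lowest in the same libraries as markers of cell types. Atf4WT 1 had the lowest adipocyte marker sum (52198 FPKM) and the lowest Rbp4, together with the highest Rdh10, Dhrs3 and Aldh1a3 of the 6 libraries. Fabp4 and Cfd made up most of the adipocyte marker sum in every library. All of its markers but Cidec were lowest in Atf4WT 1, and all but Cidec, Pparg and Lep were highest in Atf4AKO 2. Atf4WT 1 also had the lowest sum of FPKM over all genes, 524158, and Atf4AKO 2 the highest, 717778. Aldh1a3 in Atf4WT was ordered as the epithelial marker sum, with 9.08 FPKM beside 906 FPKM, 4.51 beside 178 and 1.38 beside 0.350. In Atf4AKO it was 5.34 FPKM beside 0.643 FPKM, 5.58 beside 3.75 and 6.05 beside 179.6, the same order within a narrow range. The 9 epithelial markers were all in the table, and Krt8, Krt14, Krt5, Csn3 and Wfdc18 were listed at 0 in at least 1 library. Aldh1a1 was highest in Atf4AKO 1, which also had the highest sum of 8 preadipocyte and fibroblast markers, 2321 FPKM. That sum was 698 to 1242 FPKM in Atf4WT and 1090 to 2321 FPKM in Atf4AKO, with no marker at 0. Atf4WT 3, lowest in that sum at 698 FPKM, had the next highest Aldh1a1, 50.6 FPKM. Atf4WT 2, next lowest in that sum at 728 FPKM, had the lowest Aldh1a1, 31.2 FPKM. The order of Aldh1a1 thus differed from that of these markers mainly in Atf4WT 3. All 7 macrophage markers, none at 0, summed to 186 to 469 FPKM in Atf4WT and 382 to 2328 FPKM in Atf4AKO, again highest in Atf4AKO 1. The part of these cell types in the members' values was not tested.

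The genes whose levels across the 6 libraries were most like a member were chosen by the root mean square difference of log2(FPKM + 1) values centred on each gene's mean. For Rdh5 these were Tagap1 (0.094), Ripk2 (0.108) and Igip (0.119). Tagap1 was 8.98, 6.60 and 9.95 FPKM in Atf4WT 1 to 3 and 4.14, 3.69 and 5.53 FPKM in Atf4AKO 1 to 3, the same order of the libraries within each group as Rdh5. For Rbp4 they were Gpr116, an adhesion receptor gene (0.040), Tspan7 (0.047) and Mmachc (0.050), and for Dhrs3 they were 5730409E04Rik (0.030), Tldc1 (0.042) and A130010J15Rik (0.043). For Rdh10 they were Tmem67 (0.060), Cenpc1 (0.072) and Cep162 (0.072). The nearest genes to Aldh1a3 were farther away, at 0.237 for Igfbp5, 0.258 for Fxyd2 and 0.269 for Gm5547. With 6 libraries and 12818 genes, close matches arise easily, and these are a description.

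The rest of the retinoid pathway gave no called gene. Atf4, the targeted gene, was not called either (limma adjusted p = 0.49), so the lack of a call does not mean the lack of a change. The 65 further entries covered binding, storage, oxidation, breakdown, receptors and genes induced by retinoic acid. Of these 64 had a row, and 38 reached the minimum mean of 0.5 FPKM. limma called 0 of the 38 higher and 0 lower in Atf4AKO at an adjusted p under 0.05, while over all genes 0.0156% were called higher and 0% lower. At an unadjusted p under 0.05 there were 3 of 38, all higher in Atf4AKO, against 5.04% of genes tested that were higher at that p and 4.91% that were lower. Groups without overlap were found in 2 of the 38, both with Atf4AKO above (8.21% of genes tested), and in 0 with Atf4AKO below (8.34%). Of the 38 differences 27 were positive and 11 negative, with a median of 0.195 on the log2 scale beside 0.005 over all genes tested. After rescaling to equal sums, which moved the median of all genes to -0.121, the split was 22 and 16 and the median was 0.057.

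**Figure D4:**
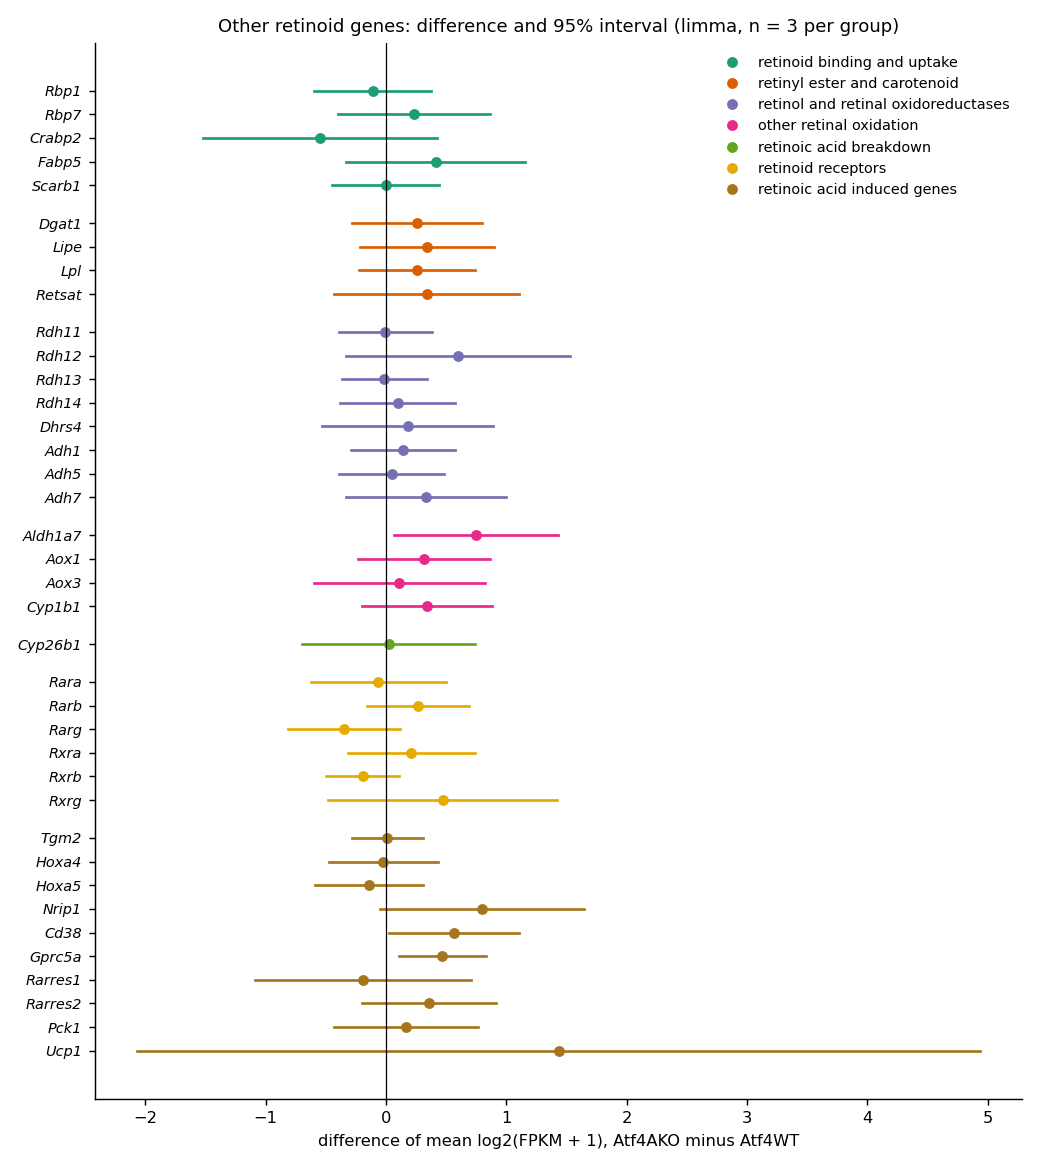
Difference of mean log2(FPKM + 1), Atf4AKO minus Atf4WT (horizontal), with its 95% interval from limma (n = 3 per group) for the 38 further retinoid genes tested, coloured by role. The intervals of 35 genes span 0, those of Aldh1a7, Cd38 and Gprc5a do not, and no gene passes after adjustment over all genes.

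Among genes of binding and uptake, 5 of 10 were tested and none passed. Rbp7, a retinol-binding protein of fat and endothelium, was the most abundant at 680.0 ± 222 FPKM over Atf4WT and 783 ± 142 FPKM over Atf4AKO (SD, n = 3 each, given in this order for the genes that follow). Fabp5, which can carry retinoic acid to the nucleus, was 129 ± 43.9 and 167 ± 41.3 FPKM. Crabp2, the carrier that delivers retinoic acid to its receptors, was 2.57, 0.807 and 0.176 FPKM in Atf4WT 1 to 3 and 0.168, 0.268 and 0.637 FPKM in Atf4AKO 1 to 3. Within each group its libraries were ordered as the epithelial marker sum.

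Genes of retinyl ester storage and carotenoid cleavage had 4 of 10 members tested, all with positive differences and none called. Lpl, the lipoprotein lipase that also releases retinol from retinyl esters, was 3478 ± 227 and 4212 ± 889 FPKM, and Lipe, the hormone-sensitive lipase that hydrolyses retinyl esters in fat, was 489 ± 78.1 and 629.6 ± 164 FPKM. Lrat, which makes retinyl esters in liver and eye, was at most 0.0472 FPKM. In the oxidoreductase list 8 of 19 members were tested, 6 positive and 2 negative, and none passed. Adh5 was 211 ± 22.1 and 220.2 ± 44.1 FPKM, and Adh1, an alcohol dehydrogenase that clears excess retinol, was 64.1 ± 9.61 and 71.3 ± 13.7 FPKM. Rdh12 was 0.233 ± 0.126 and 1.06 ± 1.18 FPKM, with Atf4AKO 1 highest at 2.40 FPKM, and Adh7 was 1.28 ± 0.458 and 1.95 ± 1.06 FPKM, also highest in Atf4AKO 1.

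Aldh1a7, the relative of Aldh1a1, had the smallest unadjusted p in the list of other retinal oxidation. Its place in that list is no evidence that its enzyme oxidises retinal. It was 12.9, 21.1 and 16.8 FPKM in Atf4WT 1 to 3 and 27.6, 41.3 and 20.4 FPKM in Atf4AKO 1 to 3. Atf4AKO 3 lay just below Atf4WT 2, so the groups overlapped. The log2 difference was 0.75 (SE 0.28, 95% interval 0.06 to 1.43), which was not called (limma adjusted p = 0.5). The ratio of Aldh1a1 to Aldh1a7 ran from 1.48 to 3.82 in Atf4WT and from 1.17 to 2.31 in Atf4AKO, lowest in Atf4WT 2 and Atf4AKO 2. Cyp1b1, a cytochrome that can oxidise retinol, was 19.0 ± 5.31 and 24.0 ± 4.15 FPKM. Of the 3 Cyp26 genes, which break down retinoic acid, Cyp26b1 was tested, at 1.67 ± 0.197 and 1.88 ± 1.31 FPKM with a log2 difference of 0.02 (95% interval -0.70 to 0.74, limma adjusted p = 0.98).

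All 6 retinoid receptor genes were tested, 3 with positive and 3 with negative differences, and none passed. Rxra, the retinoid X receptor that pairs with many nuclear receptors, was the most abundant at 53.3 ± 8.75 and 62.7 ± 15.8 FPKM. Rarg was 12.8 ± 2.32 and 9.86 ± 2.08 FPKM (log2 difference -0.35, 95% interval -0.81 to 0.12, limma adjusted p = 0.534). Rxrb was 16.9 ± 1.82 and 14.6 ± 1.44 FPKM, and Rarb, itself induced by retinoic acid in many cells, was 1.32 ± 0.454 and 1.77 ± 0.239 FPKM. Among 12 genes known to be induced by retinoic acid 10 were tested, 7 positive and 3 negative, and none passed. Ucp1 counted as positive, with a log2 difference of 1.435 (95% interval -2.07 to 4.94). Its mean FPKM was nevertheless lower in Atf4AKO, 456 ± 40.8 against 532 ± 732 FPKM, with Atf4WT 1 low at 15.5 FPKM. Gprc5a, a retinoic acid-induced receptor gene, was 6.09, 6.19 and 8.43 FPKM in Atf4WT 1 to 3 and 10.7, 10.03 and 8.85 FPKM in Atf4AKO 1 to 3, without overlap (log2 difference 0.47, SE 0.15, limma adjusted p = 0.5). Cd38, an enzyme of NAD breakdown also made by immune cells, was 26.1, 20.3 and 23.1 FPKM and 48.7, 30.5 and 27.9 FPKM, without overlap (log2 difference 0.57, SE 0.22, limma adjusted p = 0.5). It was highest in Atf4AKO 1, the library highest in both the macrophage and the preadipocyte and fibroblast marker sums. The part of these cell types in the Cd38 values was not tested. Pck1, a glyceroneogenesis enzyme, was 1184 ± 274 and 1327 ± 289.8 FPKM, and Rarres2, which encodes the adipokine chemerin, was 463 ± 77.0 and 600.4 ± 147 FPKM.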

How the data were processed

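Per the labels' protocols, TRIzol RNA from iWAT was made into stranded mRNA libraries. The deposited table holds the authors' FPKM, 1 value per symbol and library. Per the submitters' processing notes the build was mm10 (GRCm38). No aligner, quantifier or annotation is stated in those sources. Columns were matched to libraries by the sample descriptions. The sums of FPKM ran from 524158 to 717778.

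The 12818 genes averaging 0.5 FPKM or more were compared as log2(FPKM + 1) with limma 3.58.1 in R 4.3.3 (lmFit, eBayes with trend), with Benjamini-Hochberg adjustment over all tested genes, a threshold of 0.05 and no covariate. The procedure was run on simulated data with independent noise for each gene. Such data lack the tissue differences shared by many genes in these libraries, so the power reached here was not measured. Relative depth was the modal ratio of values under 0.15 FPKM. Gene positions and shared 50-base stretches came from GENCODE M21. Of the further retinoid and marker entries 3 were found under an older symbol and 1 (Rdh16f2) had no row under its symbol or a RefSeq synonym.

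The members and lists were chosen with earlier results of these data known. Named beside the members are, for each further list, passing genes, the 2 most abundant and the 2 of smallest p, plus the 3 genes nearest to each tested member. The genes nearest to Aldh1a1 are not reported here. The values of Lrat, Lrrn4 and Ucp1 were picked after being seen. Alternatives were other pseudocounts, filters, scalings and covariates, eBayes without trend, a replicate block and leaving out libraries.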

Additional observations from a re-analysis of the deposited data

How the results depend on the processing

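The count of further retinoid genes called stayed at 0 higher and 0 lower in all 17 alternatives. Over all genes, the count higher was 2, and became 0 with the replicate block, 1 with the muscle marker covariate and 0 without Atf4AKO 1 and 2, and ran from 0 to 3 when each library was left out. The count lower was 0, and ran from 0 to 2 when each library was left out. The replicate numbers were not taken as pairs: deviations of same-numbered libraries from their group means correlated at 0.082, 0.404 and 0.069, and no label names a shared litter or day.

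Rdh5 kept its sign in all 14 alternatives, from -1.36 to -0.72, and was the 1 member below without overlap after both rescalings. Its groups did not overlap, so other pseudocounts or leaving out libraries could not turn the sign. Rdh5 was also chosen with this contrast known, so the kept sign is a description and no support. Without Atf4AKO 1 and 2, a choice made after the data were seen, 1 knockout library is left, so no count without overlap is given. The members above without overlap numbered 0 to 1 when each library was left out. This was Aldh1a3 without Atf4WT 1, and without Atf4WT 2 it was Stra6, whose values are at the edge of detection. Groups with fewer libraries separate more easily, and the share over all genes was not taken in those settings. Of 14 alternatives, the sign turned in 1 each for Rdh10, Rbp4, Aldh1a3 and Dhrs3, in 3 for Aldh1a2 and in none for Aldh1a1 and Stra6. Crabp1, near 0, turned in 5. The cause was not tested. Depth is unknown, so no counting interval is given.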
